A study of Homo sapiens with 10 samples.

Results

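Most WDR5 summits in HEK293T cells stood alone, but some followed one another closely along a chromosome. A run is a chain of 3 or more WDR5 summits in which each lies less than 2.0 kb from the next, on chromosomes 1 to 22 and X, and it was built separately in each genotype. The list from EMBOW knockout (KO) cells held 891 runs with 2981 of its 21053 summits, and the list from wild-type (WT) cells held 629 runs with 2084 of its 17655 summits. The summit positions themselves chose the runs, so run number, summits per run, span and spacing are given as a description.

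The study mapped WDR5 by ChIP-seq (sequencing of immunoprecipitated chromatin) in HEK293T, a line that derives from human embryonic kidney. Nuclei were digested with micrococcal nuclease, an enzyme that cuts the DNA between nucleosomes. The KO group is EMBOW KO HEK293T precipitated with an anti-WDR5 antibody (Invitrogen, 9H25L13), and the WT group is wild-type HEK293T precipitated with the same antibody. A further list, called EMBOW-F here, comes from a separate HEK293T line with stable expression of tagged EMBOW (EMBOW-FH), precipitated on anti-FLAG beads. Each group was 1 library with no replicate, and a difference between genotypes cannot be told apart from one between libraries. The labels do not say whether the KO cells are 1 clone. Each summit is a single base with the −log10 q value of the authors' peak caller as its score, read depth is unknown, and all 95% intervals are exact (Clopper-Pearson) and cover counting error only.

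WDR5 is a WD40-repeat protein that forms part of the core of the COMPASS family of complexes, which methylate lysine 4 of histone H3 around the starts of active genes. It also takes part in complexes such as NSL, and it can be recruited to genes by MYC. EMBOW is a microprotein that binds WDR5. Wide domains of lysine 4 methylation are known at developmental regulators and at highly active genes, where the mark reaches from the start into the gene.

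Bases just upstream of a gene start were themselves seldom the site of a run summit, and the genes below are among those where one fell there. They are shown because the 250 bases upstream of the start held a run summit in both lists (HNRNPL, CUX1, CDK6, CITED1 and FOS), in the KO list alone (UBE2M) or in the WT list alone (HNRNPF). The genes were chosen for display after their values were seen. HNRNPL and HNRNPF encode RNA-binding proteins of the spliceosomal environment, CUX1 a homeodomain factor, CDK6 a G1 cyclin-dependent kinase, CITED1 a transcriptional co-activator, FOS an AP-1 subunit and UBE2M the conjugating enzyme for NEDD8. In each sequence, taken from RefSeq (GRCh38.p14) and printed 5′ to 3′ in the direction of the gene, capitals mark a TATA box (TATAAA), the box named after its letters CCAAT, or a GC box (GGGCGG), matched on either strand. The windows are chr19:38852348-38852597 (minus strand) for HNRNPL, chr7:101815757-101816006 (plus) for CUX1, chr7:92836574-92836823 (minus) for CDK6, chrX:72307158-72307407 (minus) for CITED1, chr14:75278578-75278827 (plus) for FOS, chr19:58558612-58558861 (minus) for UBE2M and chr10:43408858-43409107 (minus) for HNRNPF.
HNRNPL: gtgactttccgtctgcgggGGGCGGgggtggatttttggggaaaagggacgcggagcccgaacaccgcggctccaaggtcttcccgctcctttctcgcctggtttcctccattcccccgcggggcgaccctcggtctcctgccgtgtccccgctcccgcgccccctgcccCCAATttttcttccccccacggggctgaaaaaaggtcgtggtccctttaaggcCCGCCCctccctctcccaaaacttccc
CUX1: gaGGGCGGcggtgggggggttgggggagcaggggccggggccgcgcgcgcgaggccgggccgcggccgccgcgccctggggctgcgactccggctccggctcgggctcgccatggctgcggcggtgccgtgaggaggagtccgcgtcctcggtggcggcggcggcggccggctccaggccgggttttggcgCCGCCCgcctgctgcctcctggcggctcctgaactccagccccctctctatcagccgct
CDK6: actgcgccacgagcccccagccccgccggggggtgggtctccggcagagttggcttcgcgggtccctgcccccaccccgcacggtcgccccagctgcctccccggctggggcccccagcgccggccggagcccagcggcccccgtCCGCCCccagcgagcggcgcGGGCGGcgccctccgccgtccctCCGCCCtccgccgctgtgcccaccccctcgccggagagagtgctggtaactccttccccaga
CITED1: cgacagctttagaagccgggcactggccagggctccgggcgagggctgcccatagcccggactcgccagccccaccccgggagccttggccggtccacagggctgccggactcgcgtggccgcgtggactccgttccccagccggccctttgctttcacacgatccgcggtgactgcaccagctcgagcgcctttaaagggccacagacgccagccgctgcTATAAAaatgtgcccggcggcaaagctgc
FOS: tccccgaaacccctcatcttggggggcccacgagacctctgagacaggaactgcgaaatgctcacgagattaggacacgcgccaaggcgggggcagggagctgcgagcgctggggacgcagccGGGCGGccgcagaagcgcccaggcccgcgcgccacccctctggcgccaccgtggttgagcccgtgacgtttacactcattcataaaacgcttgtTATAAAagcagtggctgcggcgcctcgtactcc
UBE2M: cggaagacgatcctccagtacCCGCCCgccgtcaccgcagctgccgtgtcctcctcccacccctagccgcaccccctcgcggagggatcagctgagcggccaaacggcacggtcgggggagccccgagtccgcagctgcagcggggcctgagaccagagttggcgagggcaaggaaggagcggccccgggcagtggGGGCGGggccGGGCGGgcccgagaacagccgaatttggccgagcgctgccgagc
HNRNPF: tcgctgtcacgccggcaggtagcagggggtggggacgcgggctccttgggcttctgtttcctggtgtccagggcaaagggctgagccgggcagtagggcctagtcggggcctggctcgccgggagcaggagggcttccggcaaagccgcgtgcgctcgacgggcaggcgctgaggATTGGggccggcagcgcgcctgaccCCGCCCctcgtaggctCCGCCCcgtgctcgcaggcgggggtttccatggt

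At HNRNPL the run summit in these bases lay 119 bp upstream of the start in the KO list and 99 bp upstream in the WT list. At CUX1 the distances were 198 bp in KO and 190 bp in WT, and at CITED1 they were 168 bp in KO and 176 bp in WT. For FOS they were 165 bp in KO and 154 bp in WT. The summits of both genotypes stood close together at these 4 genes, but the genes were shown because both lists had a run summit in these bases. That choice itself limits how far apart such summits can lie, so their closeness is given only as a description. The CDK6 positions were further apart, at 132 bp upstream in KO and 212 bp in WT. The single list-specific run summits lay 130 bp upstream of UBE2M in KO, where the WT list had a chain of 1 summit at the start, and 225 bp upstream of HNRNPF in WT, where the KO list had 1. TATAAA was present in the FOS and CITED1 windows and in none of the other 5, and GC boxes were present in all but CITED1.

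Across the 15812 protein-coding genes whose promoter sequence was at hand (250 bases before to 50 after the start), 743 had a KO run and 500 a WT run within 1 kb of the start or across it. The median G+C content of these promoters was 65.7% at KO runs and 67.0% at WT runs, against 67.0% and 67.3% at promoters with a lone KO or WT summit and 62.7% over all promoters. CpG dinucleotides reached a median observed-to-expected ratio of 0.893 at KO runs and 0.891 at WT runs, against 0.858 and 0.862 at lone KO or WT summits. Promoters without a summit had 0.358 by the KO list and 0.393 by the WT list, and all promoters 0.763. Promoters with a chain of 2 KO or WT summits, a pair, had a ratio of 0.893 and 0.895. By this ratio run promoters were close to promoters with a pair or a lone summit and far above promoters with no summit.

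The letters TATAAA occurred in 7.27% of promoters at KO runs and 6.40% at WT runs, against 4.59% and 4.16% at promoters with a lone KO or WT summit and 9.64% of all promoters. CCAAT occurred in 43.7% at KO runs and 42.0% at WT runs, against 34.1% and 34.5% at lone KO or WT summits and 36.3% of all. GGGCGG occurred in 74.6% at KO runs and 76.2% at WT runs, against 76.5% and 76.8% at lone KO or WT summits and 58.5% of all. The E box CACGTG, a site bound by MYC and related factors, occurred in 12.2% at KO runs and 13.2% at WT runs, against 10.8% and 11.2% at lone KO or WT summits and 8.87% of all. Promoters with a KO or WT pair had TATAAA in 4.07% and 4.59% and CCAAT in 39.6% and 39.4%. They had GGGCGG in 77.5% and 77.1% and CACGTG in 11.6% and 11.8%. These shares describe letters found on either strand, each motif counted on its own even where bases overlap, and do not show binding of any factor.

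Runs took up 14.2% (13.7 to 14.6) of KO summits and 11.8% (11.3 to 12.3) of WT summits. The KO list had 1.42 times as many runs as the WT list and 1.19 times as many summits. When the KO list was shortened to its highest-scored summits so that it matched the WT list in length, it held 542 runs against 629 in WT, a ratio of 0.862. Shortening took out the lowest-scored KO summits and left those of WT, so the lists were then cut at unlike scores. At q of 1e-05 or less in both lists there were 189 KO and 137 WT runs, a ratio of 1.38. The direction of the difference in run number thus turned with this shortening but not with 1 q limit for both lists. Summits outside runs formed pairs (chains of 2, with 6352 summits in KO and 5484 in WT) or stood alone (11720 in KO and 10087 in WT).

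Runs of 3 summits were the rule, with 671 of them in KO and 489 in WT, or 75.3% and 77.7% of the runs of KO and WT. Runs of 4 numbered 159 in KO and 104 in WT, runs of 5 numbered 41 and 23 in KO and WT, and runs of 6 numbered 14 and 8. Only 6 KO runs and 5 WT runs were longer. The longest had 8 summits in KO, at HOXB9, and 9 in WT, at BCOR.

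**Figure D1:**
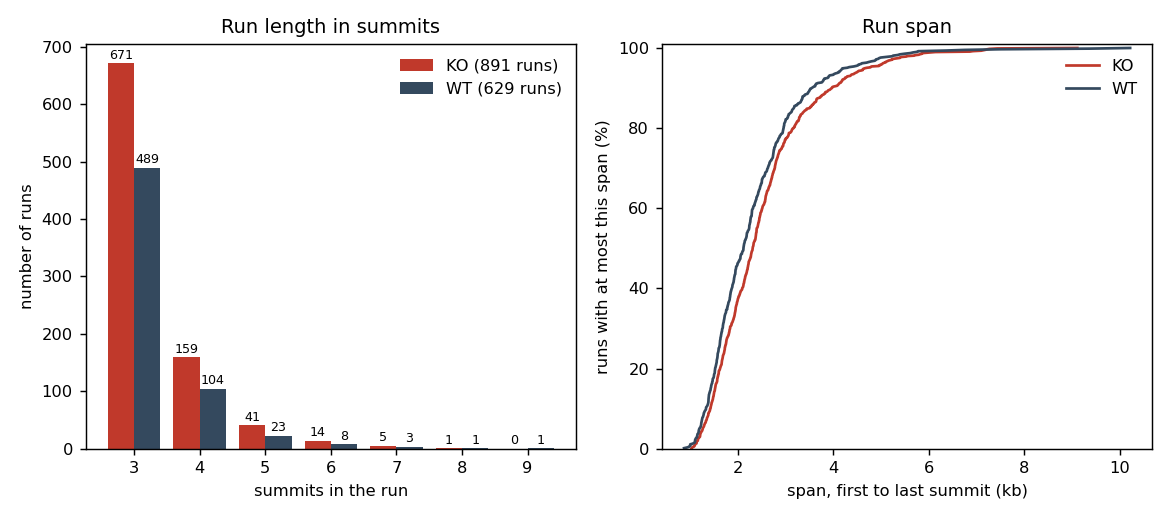
Number of runs by summits per run (left, bars) and cumulative percent of runs by span in kb (right, lines) in the KO and WT lists, 1 library each. Runs of 3 summits number 671 in KO and 489 in WT, and the curve of KO spans lies slightly to the right of that of WT spans.

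The median span from first to last summit was 2316 bp in KO (lowest 1040, highest 9111) and 2124 bp in WT (lowest 881, highest 10216). Neighbouring summits of a run lay a median of 1014 bp apart in KO and 932 bp apart in WT, and never closer than 294 bp in KO or 257 bp in WT. Just inside the limit, 64 KO runs and 42 WT runs had a widest gap of 1900 bp or more. Just outside it, the smallest distance that ended a chain was 2001 bp in KO and 2000 bp in WT. With a limit of 1900 bp there were 855 KO and 599 WT runs, and with 2100 bp there were 911 and 655.

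The highest score in a run had a median of 13.3 in KO and 11.6 in WT, and the lowest had a median of 2.86 in KO and 2.93 in WT. As a whole, run summits scored a median of 5.76 in KO and 5.84 in WT, against 6.45 and 6.70 for KO and WT summits outside runs. In KO 57.3% of run summits had a q no larger than 1e-05, as did 60.7% of all KO summits, and in WT 56.3% of run summits had one, as did 61.9% of all WT summits. Among the 1000 highest-ranked summits, 131 were in runs in KO and 100 in WT.

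Chromosome 17 had the highest share of summits in runs in both lists, at 20.5% in KO and 16.2% in WT. In KO it was followed by chromosome 16 with 19.4%, where WT had 12.6%. The lowest shares were 8.64% on chromosome X in KO, where WT had 11%, and 5.58% on chromosome 13 in WT, where KO had 9.06%. Chromosome 15 had 13.9% in KO and 7.02% in WT, while chromosome 7 had 14.0% in KO and 15.3% in WT.

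Few runs were found as runs in both genotypes. The spans of 208 KO runs overlapped a WT run by at least 1 bp, always one to one, which is 23.3% (20.6 to 26.3) of KO runs and 33.1% (29.4 to 36.9) of WT runs. Of the 683 KO runs with no overlapping WT run, 337 had 2 WT summits in the span widened by 500 bp, 275 had 1 and 25 had 3 or more. Of the 421 WT runs with no overlapping KO run, 230 had 2 KO summits there, 162 had 1 and 19 had 3 or more. With the KO list shortened to the WT length, the overlapping runs were 30.6% of KO runs and 26.4% of WT runs. The order of the 2 shares turned there, while at q of 1e-05 or less in both lists they were 17.5% and 24.1%. With the full lists, there remained 46 KO runs (5.16%) with no WT summit and 10 WT runs (1.59%) with no KO summit, so most runs of one genotype alone stood where the other had fewer summits rather than none.

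Longer runs were found in both lists more often. Overlap with a run of the other list was 18.9% for KO runs of 3, 33.3% for KO runs of 4 and 45.9% (28 of 61) for KO runs of 5 or more. In WT these shares were 28.0%, 47.1% and 61.1% (22 of 36). A longer run also has a longer span in which to overlap. The 2 members of an overlapping pair had the same number of summits in 120 cases, more in KO in 48 and fewer in KO in 40, and shared a median of 1929.5 bp.

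Individual summits of a run were less often matched than other summits. A WT summit lay within 500 bp of 54.5% (1624 of 2981, 52.7 to 56.3) of KO run summits, against 63.4% of KO pair summits, 58.9% of single KO summits and 59.6% of all KO summits. In the other direction, a KO summit lay within 500 bp of 62.6% (1304 of 2084, 60.5 to 64.7) of WT run summits, against 72.3% of pairs, 72.6% of singles and 71.3% of all WT summits. With the KO list shortened, the shares for run summits were 60.5% in KO and 59.0% in WT. Within a run the match followed the score. The highest-scored summit was matched in 82.9% of KO runs and 84.1% of WT runs, and the lowest-scored in 30.9% of KO runs and 43.4% of WT runs. Inner summits were matched more often than the first and last, at 64.8% against 47.5% in KO and 71.3% against 56.8% in WT.

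Compared at equal score, run summits stayed below single summits at scores of 3 and above and stood above them only under 3. Among summits scored 10 to 20, 86.0% of KO run summits and 90.3% of single KO summits had a WT match, and 85.5% of WT run summits and 92.7% of single WT summits had a KO match. Among those scored 5 to 10, the shares were 61.3% for runs and 67.5% for singles in KO, and 67.2% for runs and 80.9% for singles in WT. Among those scored 3 to 5, the shares were close in KO, at 33.1% for runs and 34.1% for singles. In WT they were 47.9% for runs and 55.2% for singles. Under a score of 3 the order turned, with 22.9% for runs and 16.5% for singles in KO. In WT it was 41.1% (36.2 to 46.2) for runs and 35.5% (33.0 to 38.0) for singles, and these intervals overlap. Every summit was matched in 121 KO runs (13.6%) and 121 WT runs (19.2%), and no summit was matched in 53 KO runs and 14 WT runs.

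**Figure D2:**
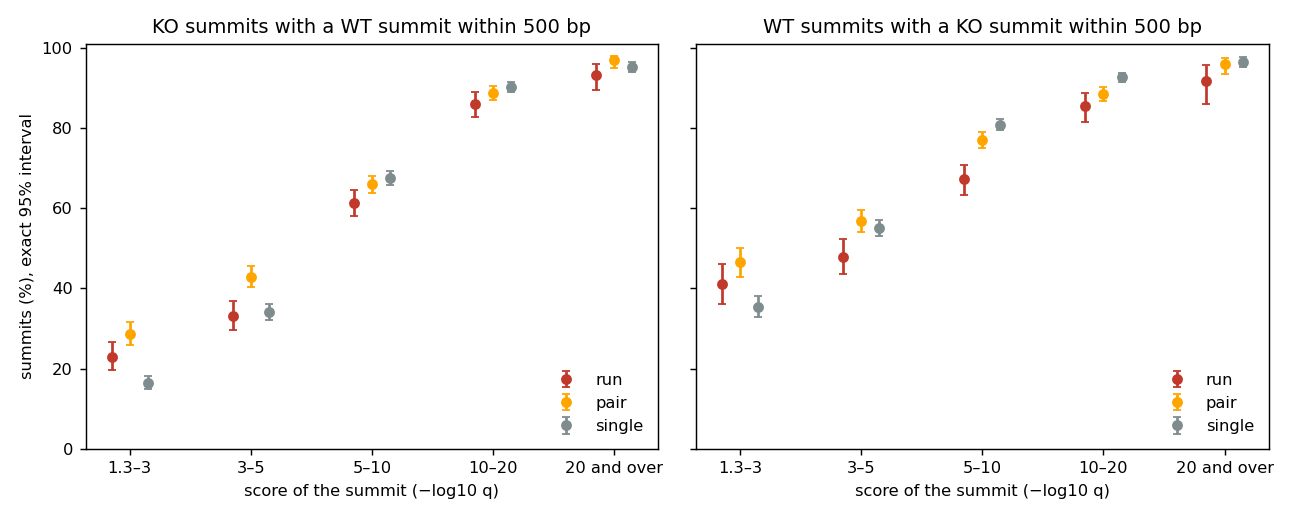
Percent of KO summits with a WT summit within 500 bp (left) and of WT summits with a KO summit within 500 bp (right), by score (−log10 q) and by whether the summit is in a run, a pair or alone; bars are exact 95% intervals. The share climbs with score in all 3 kinds, to over 91% at a score of 20 and above.

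Most runs had a gene start within 1 kb of the span. A protein-coding gene start stood within 1 kb of the span in 721 KO runs (80.9%) and 504 WT runs (80.1%), where a start is the 5′ end if RefSeq promoters gave the strand and either end otherwise. A further 116 KO runs (13.0%) and 84 WT runs (13.4%) lay in a gene away from its start, and 54 KO runs (6.06%) and 41 WT runs (6.52%) were at no protein-coding gene. At least 2 gene starts stood at 168 KO runs (18.9%) and 115 WT runs (18.3%). The places were thus divided alike in both lists. A span widened by 1 kb is a wider window than 1 kb around a summit, and no such share was computed for other summits.

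Taken singly, run summits were less often within 1 kb of a start than others. They were so in 47.2% (45.4 to 49.0) of cases in KO, against 67.0% of pair summits, 53.0% of singles and 56.4% of all KO summits. In WT they were so in 49.4% (47.2 to 51.5) of cases, against 69.8% of pair summits, 60.5% of singles and 62.1% of all WT summits. The window reaches 1 kb to each side of a start, so a run that spans more than 2.0 kb cannot lie wholly within the window of a single start. The median span was 2316 bp in KO and 2124 bp in WT, and the lower quartile was 1734.5 bp in KO and 1606 bp in WT. This limit thus held for many runs but not for all.

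The flanks of known 5′ ends held the difference. The rule itself bears on this. Neighbouring summits of a run lay a median of 1014 bp apart in KO and 932 bp in WT, so a run at a start reaches the flanks. A single summit has no neighbour less than 2.0 kb away. The shares below are therefore given as a description. Within 500 bp of a 5′ end lay 26.4% of KO run summits and 25.3% of WT run summits, against 38.4% of single KO and 44.0% of single WT summits. Between 500 and 3000 bp inside the gene lay 25.7% of KO and 27.0% of WT run summits, against 8.73% of single KO and 9.97% of single WT summits. On the outer side, 500 to 3000 bp away, lay 16.4% of KO and 14.4% of WT run summits, against 2.98% of single KO and 2.86% of single WT summits. Pair summits lay between, with 18.4% in KO and 17.8% in WT on the inner flank and 11.5% and 10.4% on the outer. The inner flank thus held more summits than the outer for runs, pairs and singles in both lists. The 250 bases just upstream of the 5′ end held 1.70% of KO and 1.54% of WT run summits, and the first 250 bases of the gene 10.9% of KO and 10.2% of WT run summits. Other summits were also rarer upstream, with 2.52% of KO and 2.88% of WT pair summits and 2.91% of KO and 3.02% of WT single summits in the upstream bases, against 16.8% and 17.5% of KO and WT pair summits and 20.4% and 24.1% of KO and WT single summits in the first bases of the gene.

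**Figure D3:**
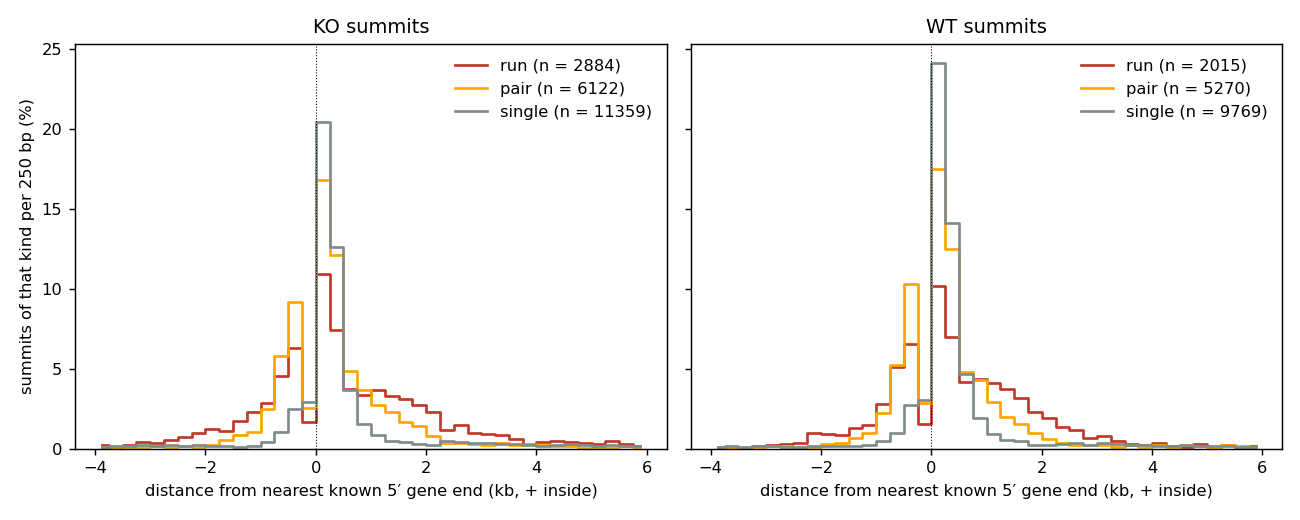
Percent of KO (left) and WT (right) summits in each 250 bp step from the nearest known 5′ gene end (kb, positive inside the gene), for runs, pairs and single summits. Single summits crowd into the first 500 bp of the gene, run summits spread over the flanks, and both run and pair summits show a dip just upstream of the 5′ end in both lists.

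The run with the most KO summits lay at HOXB9, a homeobox gene of posterior body patterning, at chr17:48616372-48625483 (hg38, as are all positions from the lists). Its 8 KO summits scored 2.53, 5.19, 6.05, 10.4, 5.56, 1.31, 4.35 and 16.9 in order along the chromosome. The WT list had 4 summits there, scored 4.88, 9.27, 7.01 and 8.82, and no run. Each WT summit stood within 305 bp of a KO summit scored 5.56 or higher, and the 4 KO summits with no WT partner within 500 bp scored from 1.31 to 5.19.

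At ACTR2, which encodes a subunit of the Arp2/3 actin nucleator, 7 KO summits ran from upstream of the start into the gene (chr2:65225985-65233176). They scored 3.09, 9.67, 52.1, 6.25, 2.91, 3.12 and 3.04. The WT list had 2 summits, scored 7.63 and 22.4, which lay 122 and 61 bp from the KO summits scored 9.67 and 52.1. The KO summits that trailed into the gene had no WT counterpart within 1 kb.

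The TRIM41 run (chr5:181216146-181223416), at a gene for a ubiquitin ligase, had 7 KO summits scored 1.49 to 19.1 and also spans 3 tRNA genes. The WT list had 3 summits there, scored 3.83 to 23.4. NPEPPS, which encodes an aminopeptidase, had 7 KO summits scored 1.47 to 24.4 and 2 WT summits scored 16.7 and 2.42. At these loci and at ACTR2 the highest WT summit stood near the highest KO summit, within 35 bp at TRIM41 and 106 bp at NPEPPS.

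ZIC2, a zinc-finger gene of neural development, had a run in both lists. It had 7 KO summits scored 1.47 to 38.6 and a WT run of 3 summits, and the summits scored highest there, 38.6 in KO and 32.4 in WT, lay 4 bp apart.

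CDKN2C, which encodes a CDK inhibitor of the INK4 family, had a run of 6 in both lists. Its 6 KO summits (chr1:50968364-50975802) scored 25.7, 27.6, 8.41, 6.04, 11.7 and 2.76. Its 6 WT summits scored 24.4, 16.4, 7.71, 6.76, 4.74 and 10.7. Of the KO summits, 5 had a WT summit within 302 bp.

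EEF2, the gene of translation elongation factor 2, had a run of low scores through its body and away from its start in both lists. The 6 KO summits (chr19:3976014-3981921) scored 5.92, 1.53, 1.63, 2.59, 2.84 and 4.80, and the 5 WT summits 3.44, 7.66, 4.78, 4.59 and 7.01. Only 3 of the KO summits had a WT summit within 500 bp, so the same stretch was called in both lists while the single bases differed.

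Among 7 more of the first 15 KO runs, all with 6 summits, 5 had no WT run. HOXA3 and HOXA7 shared a KO run scored 2.16 to 24.0 with 1 WT summit, scored 23.8, and HOXA3 had WT runs elsewhere. HSPA1B, the gene of an inducible HSP70 chaperone, had KO scores of 3.38 to 19.3 and 4 WT summits scored 4.97 to 12.5. GPBP1, a transcription factor gene, had a highest KO score of 13.7, and its 3 WT summits reached 23.9. U2SURP, a gene for a splicing-associated protein, had 2 WT summits scored 9.74 and 1.5, and CNBP, which encodes a zinc-finger nucleic-acid-binding protein, had 2 scored 3.99 and 16.0. The run at C17orf75 and ZNF207 overlapped a WT run of 3, and the last of the 7 lay at no gene and is described further on.

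In the WT list the first run was at BCOR, which encodes a corepressor found in a variant Polycomb complex. The KO list had 4 summits there, scored 8.91, 30.6, 10.6 and 14.6. The 9 WT summits (chrX:40094809-40105025) scored 6.67, 2.73, 9.5, 17.8, 5.82, 5.86, 2.72, 3.34 and 18.8. Each KO summit had a WT summit within 122 bp, and the 5 WT summits without a KO partner scored 2.72 to 9.5. BCOR as RefSeq bounds it held 2 KO runs and 4 WT runs, and both KO runs overlapped a WT run.

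FOXF1, a forkhead gene of mesenchyme, had 1 KO summit, scored 12.1, where the WT list had 8, scored 3.39, 2.30, 4.50, 10.0, 6.36, 15.8, 6.40 and 2.16 (chr16:86504370-86513726). POU3F3, a POU-domain gene of brain and kidney, likewise had 1 KO summit, scored 5.22, where the WT list had 7, scored 2.67 to 11.2 (chr2:104851264-104858761). Both genes thus had a long WT run around a lone KO summit. CCND1, the gene of cyclin D1, had a run in both lists, with KO scores of 6.95, 5.22, 7.04 and 13.1 and WT scores of 2.04, 7.71, 9.97, 4.14, 10.1, 9.53 and 1.95.

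The HOXC genes held further WT runs. In a stretch of HOXC4 and HOXC5 (chr12:54033353-54039130) the KO list had 4 summits scored 3.88 to 12.7, and the WT list a run of 7 scored 1.60 to 8.03. Both genes were also at another KO run, scored 5.36, 26.8 and 7.85, which overlapped a WT run scored 4.15, 4.87 and 8.70. At HOXC9 the KO list had 4 summits scored 6.89 to 11.1, and the WT list a run of 6 scored 2.16 to 10.2. MEF2D, the gene of a MADS-box factor of muscle and neurons, had 4 KO summits and a WT run of 6, and PRPSAP1, a gene of phosphoribosyl pyrophosphate synthesis, had 1 KO summit scored 14.5 and a WT run of 6 scored 1.37 to 16.8. The last of the first 8 WT runs without a KO run lay at no protein-coding gene, over the long non-coding RNA RENO1, with 3 KO summits scored 9.61 to 27.5 and 6 WT summits scored 3.95 to 11.8.

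**Figure D4:**
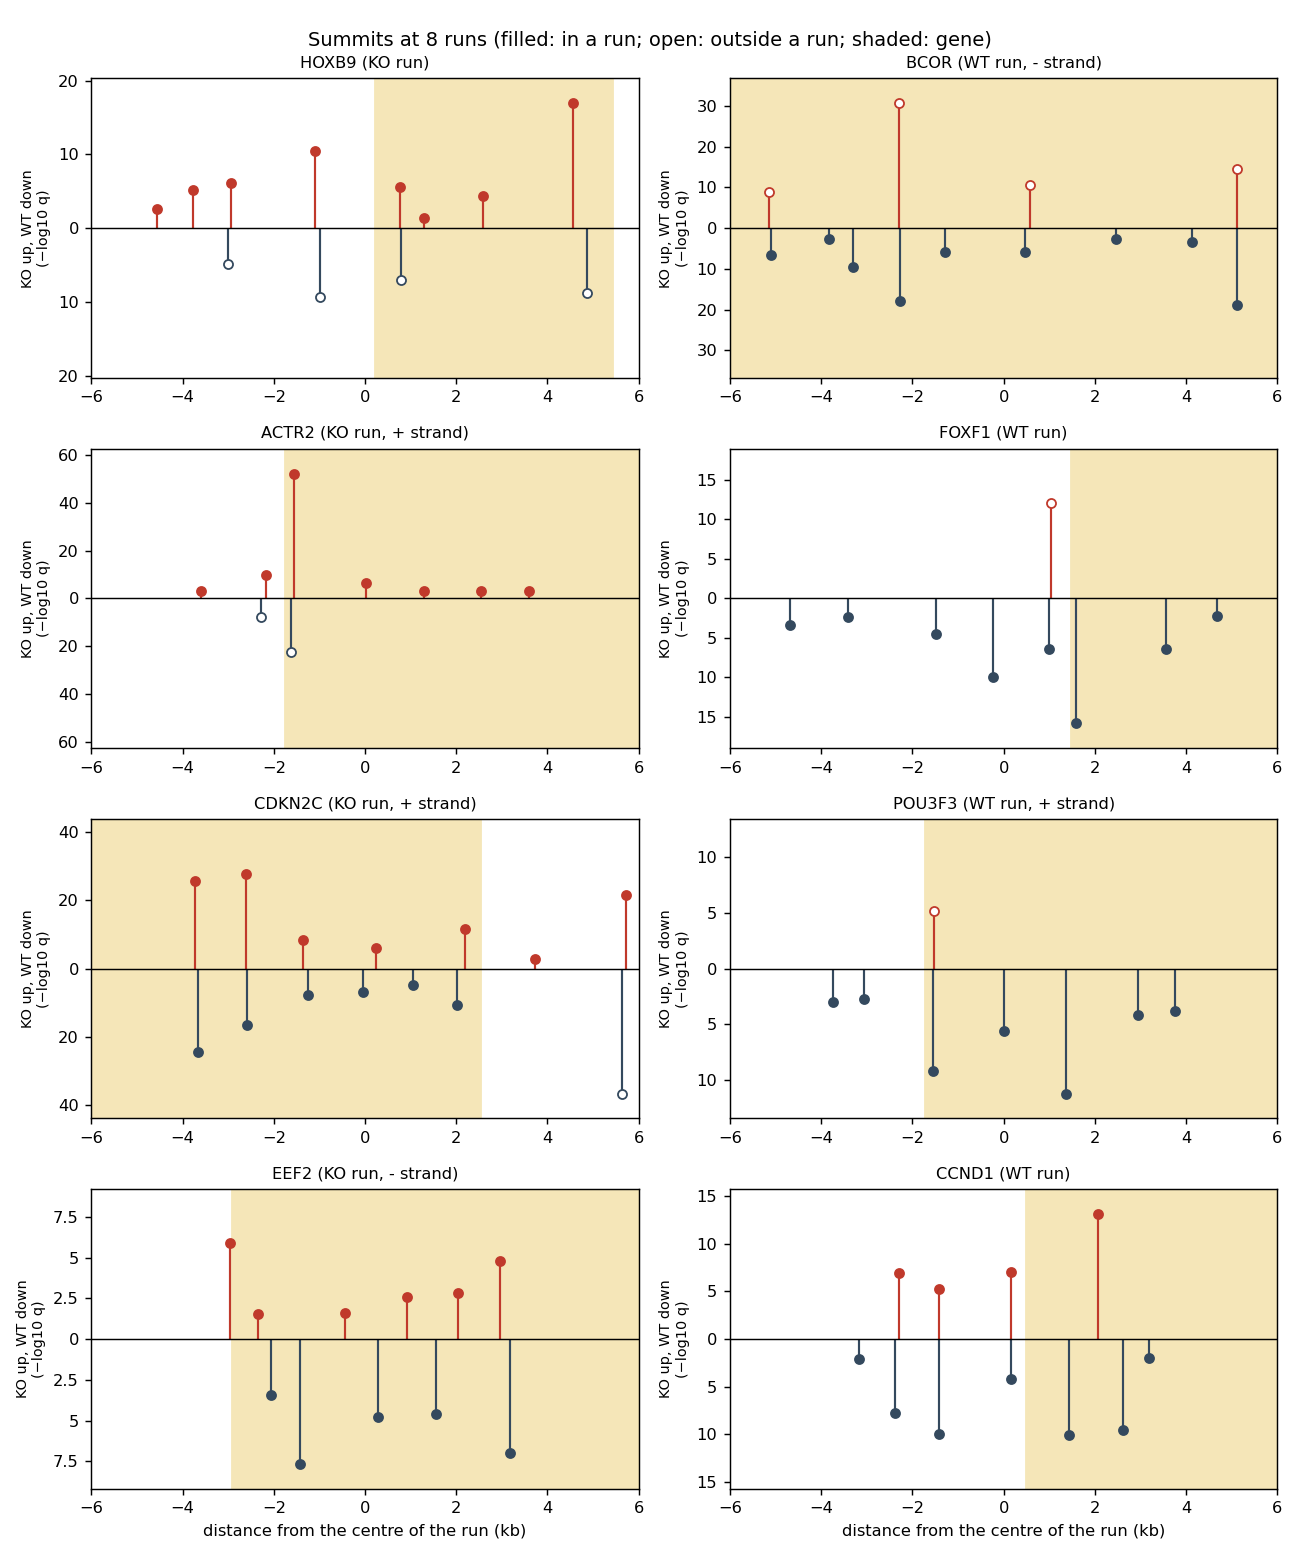
Scores (−log10 q) of KO summits (upward) and WT summits (downward) by distance in kb from the centre of the run, at 4 KO runs (left) and 4 WT runs (right); filled points are in a run (the rightmost KO point at CDKN2C in another run than the one shown), open points are not, and shading is the RefSeq gene. Most summits of the shorter chain stand opposite a high summit of the longer one, as at ACTR2, where the WT scores of 7.63 and 22.4 face KO scores of 9.67 and 52.1.

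Runs with no summit of the other list nearby were weak. The longest in KO were at NSD3, a histone methyltransferase gene, with scores of 3.38 to 8.26, at PARD6B, a cell-polarity gene, with 4.06 to 5.22, and at NOP58, which encodes a core protein of box C/D snoRNPs, with 2.16 to 7.57, each of 5 summits. NCOR1, a nuclear corepressor gene, had 4 scored 1.63 to 9.98. In WT the longest was at MIDN, with 5 summits scored 2.04 to 5.86. MIDN and NOP58 each held a run of the other list elsewhere. These genes were named after their values were seen.

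Some runs held a very high summit that stood at nearly the same base in both lists, beside weaker summits that were called in 1 list alone. The highest KO run score was 595 at RPL7L1, a ribosomal-protein-like gene, where the WT summit nearby scored 749 and stood in no run. At AKIRIN2, which encodes a nuclear import factor for proteasomes, the KO run scored 4.39, 571 and 4.74, and the WT list had a lone summit scored 650. At RPL34 the KO run scored 456, 4.06 and 1.74, and the 2 WT summits 519 and 3.34. The highest WT run score was 1204.2 at RPS4X, where the KO list had a summit scored 1083.4 at the same base, chrX:72277091, outside a run. At RPS3A the lone KO summit scored 842, and the WT run 4.14, 838 and 5.86. At SUMF1, which encodes an enzyme that activates sulfatases, the highest summits also stood close together but their scores were far apart, at 258 in KO and 23 in WT. These runs were also picked out by their values.

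A protein-coding gene is at a run here if it overlaps the span or lies within 1 kb of it. This was so for 1070 of 19974 genes at KO runs (5.36%) and 741 at WT runs (3.71%), and 260 genes were at a run in both. With the KO list shortened to the WT length, 644 genes were at a KO run. With only summits at q of 1e-05 or less, 213 genes were at a KO run and 149 at a WT run. The counts for each gene list are therefore read against these shares, and with so few members they say no more than how many were at a run.

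HOX genes, which set position along the body axis and lie in 4 clusters, were at a run more often than any other list in both genotypes. Of 39, 14 were at a KO run (35.9%, 21.2 to 52.8) and 13 at a WT run (33.3%, 19.1 to 50.2), and 9 were at a run in both. At q of 1e-05 or less the counts were 10 in KO and 4 in WT, so the near-equal counts did not hold there. Neighbouring HOX genes can share a run, and the counts rest on 11 KO runs and 11 WT runs. HOXD13 and HOXC11 were at a KO run and at no WT run, while HOXA11 and HOXD11 were at a WT run and at no KO run. At HOXD13 the 5 KO summits scored 2.67 to 19.9.

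Other homeobox and PAX genes were at a KO run in 17 of 131 cases and at a WT run in 17, with 8 in both. IRX5, an Iroquois gene, had KO summits scored 9.86, 5.99, 9.56 and 3.35 and WT summits scored 23.2, 2.36, 2.93, 4.14 and 2.57, each set a run. PITX1, a gene of hindlimb identity, had a KO run of 5 scored 5.59, 2.58, 3.23, 19.1 and 8.08, and 2 WT summits scored 19.8 and 2.25. The summits scored highest at PITX1, 19.1 in KO and 19.8 in WT, were close in score, though the run was called in KO alone. They stood more than 500 bp apart, at chr5:135032985 in KO and chr5:135033879 in WT, and so were not matched.

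FOX, SOX, GATA, TBX and basic helix-loop-helix genes, which encode factors of cell fate, were at a KO run in 15 of 133 cases and at a WT run in 9, with 4 in both. The shortened KO list had 6. At q of 1e-05 or less the order turned, with 3 in KO and 7 in WT. TBX2, a T-box repressor gene, had runs of 4 in both lists, with KO scores of 4.21, 7.46, 23.4 and 9.71 and WT scores of 4.21, 9.13, 5.64 and 2.05. TBX3, its close relative, had a KO run of 3 and a WT run of 5, which overlapped.

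WNT, FGF, BMP, NOTCH and Hedgehog signalling genes were at a KO run in 9 of 104 cases and at a WT run in 8, with 1, SMAD7, in both. The first 3 of the list were at WT runs of 4 summits. AXIN2, a feedback inhibitor of WNT signalling, had 1 KO summit scored 12.2 and WT summits scored 4.94, 2.73, 13.9 and 4.27. SMAD6, an inhibitory SMAD, had 1 KO summit scored 30.7 and WT summits scored 4.15, 5.79, 2.78 and 27.2. WNT11, a WNT ligand, had 3 KO summits scored 6.07, 6.53 and 7.04 and WT summits scored 3.24 to 9.94.

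Cytosolic ribosomal protein genes, which are short and highly transcribed, were at a KO run in 22 of 80 cases (27.5%, 18.1 to 38.6) and at a WT run in 10 (12.5%, 6.16 to 21.8), with 3 in both. The shortened KO list had 10, the same number as WT, while at q of 1e-05 or less the counts were 6 in KO and 0 in WT. RPL4, RPL19, RPLP1 and RPS24 were among those at a KO run alone, and RPL9, RPS4X and RPS27A among those at a WT run alone. At RPL4 the KO run scored 4.02, 1.53, 10.3, 16.5 and 11.2, and the 4 WT summits 2.21, 5.86, 14.6 and 7.95. At RPL19 the KO run scored 9.86, 6.54, 5.44, 23.4 and 2.95, and the 2 WT summits 4.25 and 25.5. RPS12 and RPL8 were among the 3 at a run in both. Most ribosomal protein genes had a summit within 1 kb of the gene start, with 77 in KO and 77 in WT, whether or not a run was called.

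Replication-dependent histone genes stood in pairs of neighbouring genes at shared runs. Of 69, 8 were at a KO run and 4 at a WT run, which were 4 KO and 2 WT runs, and the shortened KO list had 4. At q of 1e-05 or less there were 0 in KO and 0 in WT. H2AC25 and H2BC26 shared KO summits scored 13.1, 17.5, 2.66 and 4.51 and WT summits scored 9.34, 13.1, 2.54 and 1.86, and H2AC17 and H2BC17 also had a run in both lists.

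Immediate-early and MYC-family genes, which respond fast to growth signals, were at a KO run in 10 of 68 cases and at a WT run in 13, with 5 in both: DUSP4, ATF3, JUND, IER5L and FOS. NR4A3, an orphan nuclear receptor gene, had KO summits scored 10.3, 2.47, 2.86 and 2.04 and 1 WT summit scored 9.66. IER2 had KO summits scored 12.6, 6.25, 13.3 and 1.59 and 2 WT summits scored 6.17 and 16.4. DUSP1 and DUSP6, phosphatase genes that curb MAP kinases, were at a WT run and at no KO run.

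E2F and G1/S genes, a list of factors that drive or restrain entry into DNA replication, were at a KO run in 3 of 35 cases (8.57%, 1.80 to 23.1) and at a WT run in 8 (22.9%, 10.4 to 40.1). CCND1, CDKN2C and CDKN2A were at a run in both, and CCND2, CDT1, MCM7, MCM4 and CCNE2 at a WT run alone. The shortened KO list also had 3. At CCND2 a KO run did overlap the WT run but ended more than 1 kb before the gene, so the gene was counted in WT alone. At q of 1e-05 or less, the counts were 2 in KO and 3 in WT.

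Genes of COMPASS and of other WDR5 partners were at a KO run in 8 of 33 cases (24.2%, 11.1 to 42.3) and at a WT run in 6 (18.2%, 6.98 to 35.5). At q of 1e-05 or less the order turned, with 1 in KO and 3 in WT. SETD1B and KMT2C, both H3K4 methyltransferase genes, and PAXIP1 were at a run in both. KANSL1, PAGR1, KMT2A, DPY30 and WDR5 itself were at a KO run alone, and KIF2A, RBM15 and PHF20 at a WT run alone. The WDR5 gene had KO summits scored 8.51, 17.1 and 3.13, a run, and WT summits scored 13.0 and 17.4, a pair. KMT2A had a KO run of 3, of which 2 summits at the gene scored 4.12 and 14.4, and 1 WT summit at the gene scored 6.22. KIF2A, a microtubule-depolymerising kinesin, had KO summits scored 3.35 and 22.8 and a WT run scored 2.57, 8.67, 20.8 and 4.97. Neither SCRIB, a polarity gene, nor HCFC1, the gene of a host cell factor that joins SETD1 complexes, was at a run. SCRIB had 1 KO summit scored 10.9 and 2 WT summits scored 11.3 and 9.13, and HCFC1 had 3 KO summits scored 4.09 to 18.2 and 2 WT summits scored 6.26 and 19.2.

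Polycomb genes were at a KO run in 4 of 37 cases and at a WT run in 4, and 3 of them, RBBP4 and PCGF2 included, in both. BMI1 was at a KO run alone and ASXL3 at a WT run alone. RBBP4, a histone-binding chaperone gene, had KO summits scored 3.19, 5.62, 19, 44.2 and 3.5 and WT summits scored 2.62, 17.2 and 17.8. PCGF2, a PRC1 ring-finger gene, had KO summits scored 2.53, 17.1 and 18.8 and WT summits scored 4.19, 2.47 and 11.7.

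ZNF genes, most of which encode zinc-finger repressors, had 21 of 509 members at a KO run (4.13%, 2.57 to 6.24) and 10 at a WT run (1.96%, 0.946 to 3.58). The KO interval includes the 5.36% of all genes, and the WT interval ends just below the 3.71% of all genes. ZNF207, ZNF143, ZNF34 and ZNF462 were the 4 at a run in both. None of 53 clustered protocadherins and none of 68 genes silent in kidney lines was at a run in either list, which allows shares of up to 6.72% and 5.28% by the upper bounds of the intervals. Silent genes seldom had any summit at the gene start, with 3 in KO and 2 in WT.

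**Figure D5:**
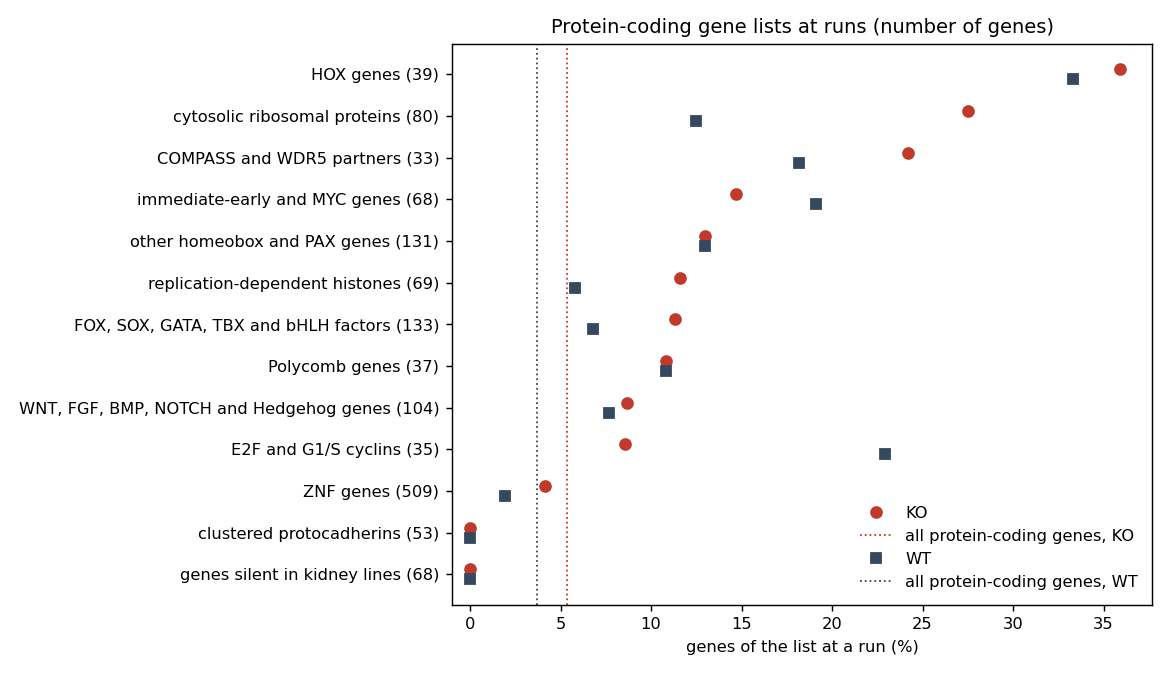
Percent of the genes of each list (number of genes in parentheses) at a KO run (circles) and at a WT run (squares); dotted lines are the shares of all protein-coding genes, 5.36% in KO and 3.71% in WT. HOX genes stand furthest to the right in both lists, and ribosomal protein genes and E2F and G1/S genes show the widest gaps between KO and WT.

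Small nucleolar RNA (snoRNA) genes, which guide modification of ribosomal RNA and lie in introns of host genes, were near run summits more often than near others. A snoRNA gene stood within 1 kb of 1.27% of KO run summits, against 0.273% of single and 0.432% of all KO summits. In WT it stood within 1 kb of 1.15% of run summits, against 0.327% of single and 0.459% of all WT summits. These rest on 22 KO runs and 14 WT runs, and several snoRNA genes can share a host. The hosts RPS12, EEF2, NOP56, RABGGTB and RCC1 had a run in both lists. Small nucleolar RNA host genes (SNHG) were at a KO run in 6 of 29 cases and at a WT run in 4, with SNHG16 and SNHG3 in both, against 1.6% and 1.23% of all 18177 long non-coding RNA genes at a KO or WT run. For tRNA genes the shares were 0.671% of KO run summits, where all KO summits had 0.537%, and 0.288% of WT run summits, where all WT summits had 0.527%.

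EMBOW-F summits were seldom at runs, and still more seldom at pairs. Within 500 bp of 0.738% (22 of 2981) of KO run summits lay an EMBOW-F summit. The share was 0.645% for pair, 3.63% for single and 2.32% for all KO summits. In WT this was so for 1.97% (41 of 2084) of run summits, against 0.529% of pair, 3.81% of single and 2.57% of all WT summits. A low share was thus not particular to runs. Only 7 KO runs and 13 WT runs had an EMBOW-F summit in the span, and 6 of these KO runs and 11 of these WT runs were at no protein-coding gene. Among runs at a gene there was 1 of 837 in KO and 2 of 588 in WT.

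Runs more than 100 kb from any protein-coding gene numbered 9 in KO and 15 in WT. Their summits were few. Of KO run summits, 1.88% lay more than 100 kb from a gene start, against 2.66% of pair and 7.77% of all KO summits. Of WT run summits, 4.13% did so, against 2.66% of pair and 6.93% of all WT summits. A share below that of all summits was thus not particular to runs, and in WT the share of pairs was lower still. An EMBOW-F summit lay in the span of 6 of these distant runs in KO and 10 in WT, and 6 in each list overlapped a run of the other. At chr1:125178260-125183795 the 6 KO summits scored 22.6, 117, 316, 60.0, 70.6 and 54.8. The WT list had a run of 6 there, scored 63.6, 29.0, 431, 101, 134 and 84.3, and EMBOW-F summits also fell in it. Of the 6 KO summits, 5 had a WT summit within 9 bp. The runs at chr17:26881406-26885490, chr1:143213226-143217387 and chr16:46387934-46390530 were also called in both lists, with KO scores of 23.8 to 112, 17.5 to 88.9 and 24.7 to 50.9. At chr16:46398911-46400131 the KO run scored 29.6 to 97.0, while the WT list had 2 summits, scored 120 and 59.9, and no run. The runs given by position here were picked out by their high scores. Whether summits at these places depend on the antibody was not tested, since inputs were not analysed here. Runs that overlapped between lists were 31.5% of KO runs at no gene and 22.3% of those at a gene start, and in WT 36.6% and 32.5%.

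The authors' deposited list of transcripts, a set of WDR5 targets that they name as new and EMBOW-dependent, was chosen on these samples and is not independent of them. A listed 5′ end lay within 1 kb of 8.42% of KO run summits, against 10.5% of all KO summits, and of 1.49% of WT run summits, against 2.95% of all WT summits. It touched 126 KO runs (14.1%) and 19 WT runs (3.02%). In both lists the run summits thus stood below the share of all summits.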

How the data were processed

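WDR5 ChIP-seq summits from EMBOW KO and WT HEK293T cells were analysed, with 1 library for each group. Per the submitters' processing notes, the tools were MACS2 2.2.7.1, Bowtie2 2.4.5 and deepTools 3.5.1, with hg38 as the build and no role stated. Each deposited list holds summits of 1 bp with a −log10 q score from the authors' peak caller, a unit read from the values, whose minimum is 1.30 in KO and 1.31 in WT. The input behind each list is not given in the sources. Lists for H3K4me3 and inputs were not analysed here. The EMBOW-F list was matched to the FLAG precipitation by its name, and 1 line of the transcript list with a damaged chromosome name was repaired.

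Summits on chromosomes 1 to 22 and X were chained at gaps under 2000 bp, and chains of 3 or more were runs. Genes and promoter sequences came from RefSeq (GRCh38.p14), whose promoter table gave the strand and 5′ end of 15812 of 19974 protein-coding genes on these chromosomes. For the other genes either end counted as a start. A summit counted as matched if the other list had one within 500 bp. Shares carry exact 95% intervals. With 1 library a group no p-value was computed, and read depth is unknown. The steps were tested on simulated data.

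Runs were ordered by summits, then span, then highest score. The genes named are those at the first 15 KO runs, the first 8 runs of each list without an overlapping run in the other, the first 5 WT runs, the first 3 members of each of 14 gene lists, and WDR5, SCRIB, KIF2A, KMT2A and HCFC1. Genes named outside this rule are marked in the text or given as members of a small count. The runs and gene lists were chosen with earlier results of these data known. Alternatives changed the gap, the smallest run, the summits used, the windows and the overlap. Some genes that the naming rule picks are not reported here. The steps ran in Python 3.11.15 with pandas 2.3.3 and numpy 2.4.6, intervals in scipy 1.17.1 and plots in matplotlib 3.10.9.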

Additional observations from a re-analysis of the deposited data

How the results depend on the processing

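Of 56 alternatives, 20 moved the value by no more than its counting interval or 1.5 times a count, and 36 by more. The 20 include WT values that shortening the KO list could not change, namely the run number and the share at a gene start. No paired analysis was possible because each genotype has 1 library. Runs numbered 274 in KO and 244 in WT with gaps under 1 kb, 220 and 140 with 4 or more summits, and 189 and 137 at q of 1e-05 or less. The KO list shortened to the WT length held 542 KO runs, fewer than the 629 of WT. KO runs that overlapped a WT run were 10.6% with gaps under 1 kb, 28.6% under 3 kb, 19.1% with 4 or more summits, 17.5% at the stricter q, 30.6% with the shortened list and 18.9% with an overlap of 50% of each span. WT runs that overlapped a KO run were 11.9% under 1 kb, 41.6% under 3 kb, 24.1% at the stricter q, 26.4% with the shortened list and 26.7% with the larger overlap. KO run summits at a gene start were 58.8% with gaps under 1 kb, 35.0% with 4 or more summits, 44.6% at the stricter q, 30.5% within 500 bp and 69.0% within 2 kb. WT run summits at a gene start were 58.8% under 1 kb, 38.1% with 4 or more summits, 30.7% within 500 bp and 70.1% within 2 kb. KO run summits with a WT match were 57.0% with gaps under 1 kb, 52.1% with 4 or more summits, 60.5% with the shortened list, 42.2% within 200 bp and 73.8% within 1 kb. WT run summits with a KO match were 65.0% at the stricter q, 59.0% with the shortened list, 48.5% within 200 bp and 82.9% within 1 kb. Each alternative changes the rule or the summits by construction, and the cause of the changes was not tested beyond that. With the shortened list the order of KO and WT turned for the share of overlapping runs and for the share of matched run summits. Leaving out runs with an EMBOW-F summit, an alternative chosen after seeing the data, gave 1.44 times as many KO as WT runs. The gene-list counts with fewer summits were also added after seeing the data. Depth is unknown, so summits missing from a list may be present in the cells.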
